A study of Mus musculus with 3 samples.

Results

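The levels of 9 enzymes of the mevalonate and cholesterol route were followed in sorted bone marrow cells of mice. They were *Hmgcs1*, *Mvd*, *Idi1*, *Fdps*, *Fdft1*, *Sqle*, *Lss*, *Cyp51* and *Dhcr7*, chosen by name, 9 of the 27998 genes in the matrices. The cells were sorted for CD133, the product of *Prom1*, from marrow of C57BL/6 mice and sequenced as 3 libraries with the 10x Chromium 3′ v2 kit. The young and control libraries carry an age of 3 months and the old library one of 27 months, whereas the series' design text gives 18.5 months for the old mice. That text gives n = 3 for the young and the old mice and names the intestine as the source, where the sample labels name bone marrow. The sorted cells of the mice were not kept apart in the matrices, so each group is 1 library. No treatment or allele is given for any of the groups, and nothing in the labels says how the control mice differ from the young ones.

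The mevalonate route builds isoprenoids from acetyl-CoA. Hydroxymethylglutaryl-CoA synthase (*Hmgcs1*) stands near its start, mevalonate diphosphate decarboxylase (*Mvd*) and isopentenyl diphosphate isomerase (*Idi1*) make the isoprene units, and farnesyl diphosphate synthase (*Fdps*) joins them to farnesyl diphosphate. From there squalene synthase (*Fdft1*) commits the carbon to sterols, and squalene epoxidase (*Sqle*), lanosterol synthase (*Lss*), lanosterol demethylase (*Cyp51*) and 7-dehydrocholesterol reductase (*Dhcr7*) lead on to cholesterol. Other branches take farnesyl diphosphate to protein prenylation, dolichol and ubiquinone. When membrane sterol is low, SCAP escorts the membrane-bound precursor of SREBP2 to the Golgi, where cleavage frees the transcription factor, which then raises most genes of the route.

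Because genes under SREBP2 share short promoter elements, the windows around their starts were read. RefSeq windows on GRCm38.p6, of 250 bases before and 50 bases after a start, matched 6 of the 9 members (not *Fdps*, *Fdft1* and *Sqle*). Windows of 3 members are printed 5′ to 3′ in the direction of the gene, restricted to the bases ahead of the first annotated base of the gene, to show what the members do and do not share. Capitals mark TCACNCCAC (the core of a classical sterol regulatory element), CCAAT (the box bound by NF-Y) and GGGCGG (the GC box bound by SP1), each on either strand. The stretches are chr13:119690201-119690350 on the plus strand for *Hmgcs1*, chr8:122443423-122443572 on the minus strand for *Mvd*, and chr10:76531455-76531587 on the plus strand for *Lss*.
Hmgcs1: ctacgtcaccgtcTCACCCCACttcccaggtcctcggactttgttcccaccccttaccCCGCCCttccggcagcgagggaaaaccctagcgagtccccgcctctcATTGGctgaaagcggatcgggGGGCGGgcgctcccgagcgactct
Mvd: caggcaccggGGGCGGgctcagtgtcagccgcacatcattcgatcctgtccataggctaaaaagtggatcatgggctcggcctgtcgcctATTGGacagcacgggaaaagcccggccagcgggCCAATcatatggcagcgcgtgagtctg
Lss: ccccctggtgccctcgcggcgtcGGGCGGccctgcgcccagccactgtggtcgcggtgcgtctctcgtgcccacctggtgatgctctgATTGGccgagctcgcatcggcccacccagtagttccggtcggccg
TCACNCCAC was found in the window of *Hmgcs1* alone, at bases -137 to -129 from the start, against 1.24% of the 32851 windows listed for all genes. CCAAT was found in at least 1 window of each of the 6 members, against 37.4% of all windows, and GGGCGG likewise against 35.7%. The members are counted per gene and the shares per window, so the units differ. *Dhcr7* has 3 windows, and its CCAAT lies only in that at chr7:143829964-143830263, inside the annotated gene. No motif overlapped another in the printed stretches. These are matches of letters only.

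Before the enzymes themselves, 3 facts about the libraries bear on every value. After filters on UMIs (unique molecular identifiers, 1 per captured transcript), genes and mitochondrial content, and after setting aside cells with markers of other blood cells, 6438 young, 9660 control and 9584 old cells remained, with medians of 10317, 9594.5 and 12704 UMIs. The cells carried neutrophil-lineage genes at 109253 to 134010 CPM (UMIs per 1000000 UMIs) in sum, whereas 7 endothelial markers summed to 7.57 to 8.96 CPM, with 5, 1 and 0 UMIs of the defining marker *Cdh5* in young, control and old cells. They are therefore called CD133+ marrow cells here, and *Prom1* itself was at 45.9 to 52.8 CPM. With the set-aside cells kept in, *Cdh5* was at 0.495 CPM in young, 0.0313 CPM in control and 0 CPM in old cells. Without them it was at 0.0759, 0.0105 and 0 CPM. The young library stood apart in 8 interferon-stimulated genes, which summed to 940 CPM there against 30.7 CPM in control and 25.8 CPM in old cells. It also held 940 cells with markers of other blood cells, 12.7% of those kept, against 1.23% and 1.002%. In the young cells in use, the marker lists (6 or 7 genes each) of erythroid, B progenitor, basophil and mast, dendritic and monocytic cells still summed to 27.7 to 128 CPM each, against 5.05 to 35.0 CPM in the other libraries, and their part in the results was not tested. Barcodes shared between libraries numbered 120 for young and old, 125 for young and control, and 161 for old and control. With 1 library per group no test between groups was possible. Intervals in brackets are exact at 95% and cover counting error only, not the difference between mice or runs.

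All 9 enzymes were lowest in the young library and highest in the old one, with the control library in between. *Dhcr7* was the enzyme whose libraries did not separate beyond counting error. In sum the 9 enzymes had 148 CPM in young, 253 CPM in control and 475 CPM in old cells. Most of this was *Fdps*, which made up 72.4%, 75.1% and 77.4% of the UMIs of the set. Each UMI stands for 1 captured 3′ end, so the levels of different genes are per transcript and not scaled for length. The other 8 together had 40.7 CPM (39.2 to 42.3) in young, 63.1 CPM (61.5 to 64.7) in control and 108 CPM (106 to 110) in old cells, so the order did not rest on *Fdps*.

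**Figure D1:**
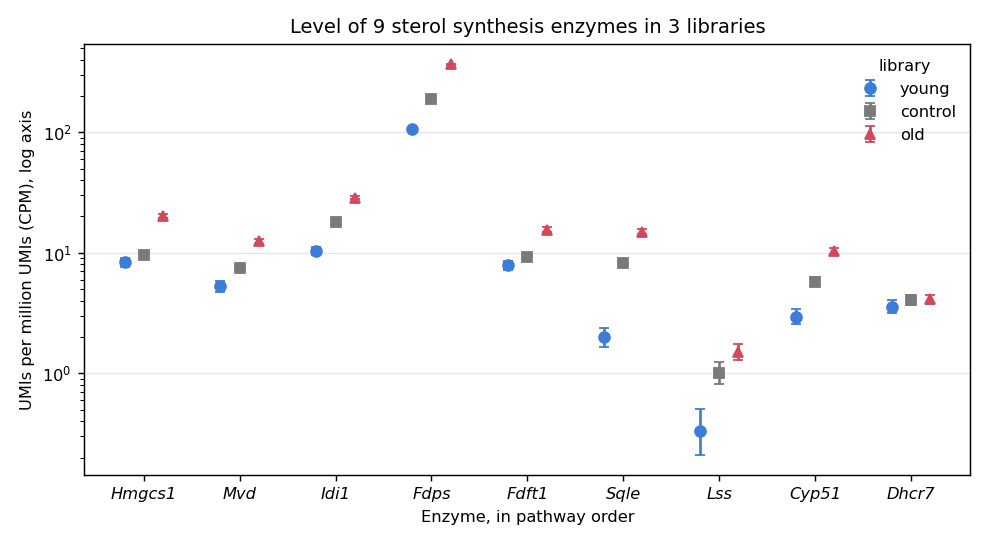
Level of each enzyme, in CPM on a log axis, in the young, control and old library (1 pooled library each); bars are exact 95% Poisson intervals. *Fdps* stands above the other 8 in every library, and the order young, control, old holds for all 9, with overlapping intervals for *Dhcr7* and, between young and control, for *Hmgcs1*.

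The 3 enzymes ahead of *Fdps* differed in where the control library fell. *Hmgcs1* (chr13:119690379-119708260) had 8.35 CPM in young, 9.50 CPM in control and 20.1 CPM in old cells. The young and control libraries were thus close, 1.14 times apart (1.022 to 1.27), and the old one stood alone, 2.40 times above young (2.19 to 2.64). *Mvd* (chr8:122433601-122443422) had 5.30, 7.41 and 12.4 CPM in the same order, with old cells 2.34 times above young (2.08 to 2.64). *Idi1* (chr13:8885501-8892451) had 10.3, 17.99 and 28.7 CPM, and was the second enzyme by level in every library. Its steps were of like size, 1.74 times (1.59 to 1.91) from young to control and 1.59 times (1.504 to 1.69) from control to old.

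*Fdps* (chr3:89093588-89101959) had 107 CPM (104 to 109) in young, 190 CPM (187 to 193) in control and 368 CPM (364 to 371) in old cells. The 3 libraries did not overlap within counting error. The old library was 3.44 times above young (3.36 to 3.53) and 1.93 times above control (1.90 to 1.97), and control was 1.78 times above young (1.73 to 1.83). Of the 5578 genes that reached 10 CPM in young or old cells, 99.2% had a lower ratio of old over young. Of the 5547 such genes for control and young, again 99.2% had a lower ratio than *Fdps*, so the gap between the libraries that share an age label also lay near the top of all genes. The members were chosen with earlier results of these data known, so both ranks only describe *Fdps*. On its own strand the annotated gene shares bases with *Gm43738* and *Gm22935*, and reads of shared exons cannot be told apart.

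After the branch point the differences were largest at *Sqle*, an oxygen-dependent, rate-limiting step of the sterol branch. *Sqle* (chr15:59315077-59331192) had 1.99 CPM (131 UMIs) in young, 8.19 CPM (778 UMIs) in control and 14.9 CPM (1772 UMIs) in old cells. Old cells were 7.52 times above young (6.29 to 9.05), the highest ratio of the 9, and control cells 4.12 times above young (3.42 to 4.995). With all deposited cells the log2 ratio of control over young for *Sqle* was 1.41 in place of 2.04. Its neighbour *Fdft1* (chr14:63145150-63179578) had only 7.88, 9.19 and 15.5 CPM, a ratio of old over young of 1.97 (1.79 to 2.17). *Fdft1* overlaps *Ctsb* on the other strand, and *Hmgcs1*, *Mvd*, *Idi1* and *Lss* also overlap annotated genes on the strand across from them. Whether counting used strand is not given in the sources used here. *Lss* (chr10:76531588-76557138) was at the lowest level of the set, 0.334 CPM in young, 1.01 CPM in control and 1.501 CPM in old cells, from 22, 96 and 178 UMIs. Its ratio of old over young, 4.50, therefore has a wide interval (2.88 to 7.36). In cells with few UMIs of the interferon-stimulated genes (under 5 per 10000) the log2 ratio of *Lss* was 1.53 in place of 2.17 for old over young, and 0.96 in place of 1.60 for control over young. *Cyp51* (chr5:4081145-4104746), which overlaps *Akap9* on the other strand, had 2.94, 5.76 and 10.4 CPM and was 3.53 times higher in old than in young cells (3.03 to 4.13). *Dhcr7* (chr7:143823145-143848410), the last step, had 3.58 CPM (3.14 to 4.07) in young, 4.07 CPM (3.68 to 4.50) in control and 4.10 CPM (3.74 to 4.48) in old cells. These intervals overlap, and the interval of old over young for *Dhcr7* runs from 0.978 to 1.34 times.

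Counted over the set, 8 of the 9 enzymes were at least 1.5 times higher in old than in young cells, with a median log2 ratio of 1.48. Of all genes that reached 10 CPM in 1 of the libraries or both, 5.06% passed the same limit, and 5.87% of genes with a mean of at least 1 CPM, with a median log2 ratio of -0.07 over the first group. Against the control library 7 of the 9 passed in old cells, with a median log2 ratio of 0.76, where 5.34% and 7.26% of all genes did. Control passed against young for 5 of the 9 (*Idi1*, *Fdps*, *Sqle*, *Lss* and *Cyp51*), with a median log2 ratio of 0.80, where 2.72% and 3.29% of all genes did. These 3 comparisons share libraries and are not independent of each other. A minimum of 10 CPM in either library was met by 7 members for old over young, but 2 of them, *Fdps* and *Idi1*, met it in both, so the counts are given over all 9. For control over young it was met by 2 members. *Lss* was also under a mean of 1 CPM for old over young and control over young. It is counted there though it belongs to neither group of all genes.

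The rest of the pathway was read from a list of genes chosen by function. Of 9 other genes of the sterol route, 6 were at least 1.5 times higher in old than in young cells and none was 1.5 times lower, with a median log2 ratio of 0.93. Of all genes, 5.06% (reaching 10 CPM) or 5.87% (mean of at least 1 CPM) were higher by this limit, and 9.81% or 16.9% were lower. The highest ratio among them was that of *Msmo1*, the methyl sterol oxidase that acts after *Cyp51*, which had 20.01, 30.7 and 59.8 CPM. *Mvk* and *Pmvk*, the kinases just ahead of *Mvd*, were 2.74 times (2.38 to 3.18) and 1.99 times (1.87 to 2.12) higher in old than in young cells. Other genes of the route stayed under the limit. *Acat2*, a thiolase at the start of the route, was 1.39 times higher in old than in young cells (1.27 to 1.54). *Ebp*, a sterol isomerase, was level at 65.1, 64.6 and 65.7 CPM. Against control, 4 of the 9 other route genes were at least 1.5 times higher in old cells, where 5.34% or 7.26% of all genes were. Control was higher than young by this limit for 1 of the 9, where 2.72% or 3.29% of all genes were.

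Of 9 genes of the branches that lead away from the sterol route, 1 was at least 1.5 times higher in old than in young cells, *Ggps1*, which makes geranylgeranyl diphosphate (1.52 times, 1.34 to 1.74). One was lower by that limit, *Coq2* of ubiquinone synthesis, with 19.3 CPM for young against 12.4 CPM for old cells. Their median log2 ratio was 0.11, and 1 of 9 in each direction is near the shares of all genes (5.87% higher and 16.9% lower). Among 9 genes of sterol sensing and transport, 2 were higher and 4 lower by the limit, against the same 5.87% and 16.9% of all genes. The higher ones were *Insig1*, which holds SCAP back, and the sterol carrier *Stard4*. *Insig1* had 6.15, 10.5 and 13.6 CPM in young, control and old cells, and *Stard4* had 10.8, 13.3 and 18.1 CPM. The lower ones were *Scap*, *Npc1*, *Abcg1* and *Abca1*. For *Scap*, young cells stood at 7.999 CPM, control cells at 7.25 CPM and old cells at 4.54 CPM. *Abcg1* had 2.28, 1.05 and 0.953 CPM in the same order. *Abca1*, a cholesterol exporter, rests on 7 young and 4 old UMIs, and its interval includes no difference. *Srebf2* itself, which encodes SREBP2, had 9.73, 10.6 and 12.9 CPM in young, control and old cells. Against control, 0 of the 9 branch genes and 0 of the 9 sensing and transport genes were higher by the limit in old cells. Of all genes, 5.34% or 7.26% were. Lower by the limit were 1 and 2 genes of these lists. Control over young had 1 higher gene in each list (2.72% or 3.29% of all genes), and 0 and 2 lower ones. No share of lower genes was computed for these comparisons.

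**Figure D2:**
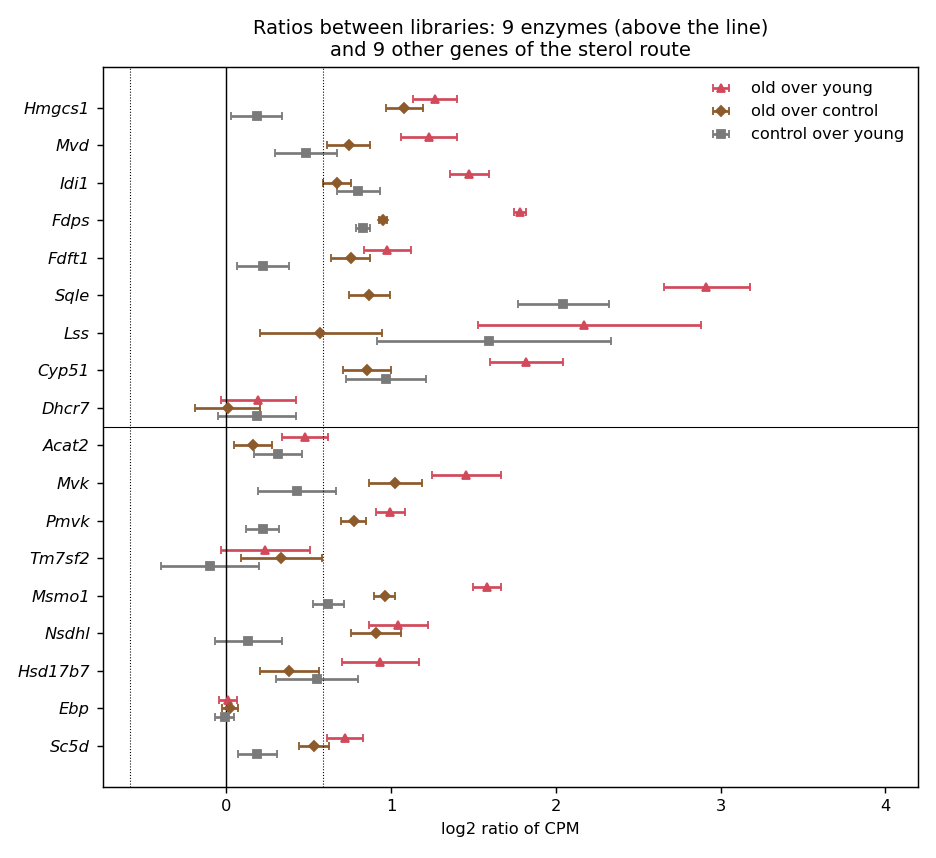
Log2 ratio of the summed level between libraries for the 9 enzymes (above the line) and 9 other genes of the sterol route (below it), with exact 95% counting intervals; dotted lines mark 1.5 times. For old over young, 8 of the 9 enzymes and 6 of the 9 other genes lie beyond the limit, while *Dhcr7*, *Acat2*, *Tm7sf2* and *Ebp* lie inside it.

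The libraries held different shares of cells along maturation, so the enzymes were compared within bands of *Mpo*, the myeloperoxidase of azurophil granules that is high in promyelocytes and falls later. Bands were set by *Mpo* UMIs per 10000 UMIs of a cell. Cells with 100 or more made up 7.596% of young (489 cells), 2.96% of control (286 cells) and 0.949% of old cells (91 cells). Cells with no *Mpo* UMI numbered 342, 358 and 413. The point values of *Fdps* rose with *Mpo* over every step in the young and control libraries. In young cells it went from 39.4 CPM without *Mpo* through 61.5, 96.4, 185 and 207 to 221 CPM in the top band. In control cells the same bands held 116, 133, 170, 305, 314 and 406 CPM. In old cells they held 287, 291, 403, 573, 574 and 472 CPM, so that old cells without *Mpo* stood above young cells of the top band.

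The excess of *Fdps* in old over young cells was therefore widest where *Mpo* was absent and narrowed with each band. It was 7.27 times without *Mpo* (log2 2.86, 2.55 to 3.19), then 4.72, 4.19, 3.09 and 2.77 times, and 2.13 times in the top band (log2 1.09, 0.95 to 1.24). The intervals of the lowest and the top band do not overlap. In the young library *Ifi27l2a*, of the interferon-stimulated genes, also fell with each band, from 994 CPM without *Mpo* to 152 CPM in the top band. Cells without *Mpo* had the lowest median of UMIs as well, 6090 in young and 8205 in old cells. The part of either in the narrowing was not tested. Old over control narrowed to 1.16 times in the top band (log2 0.22, 0.07 to 0.36), from 2.47 times without *Mpo*. The other 8 enzymes in sum showed a like shape against control, 3.30 times without *Mpo* and 1.05 times in the top band, where the interval on the log2 scale (-0.20 to 0.35) includes no difference. Against young, the sum of the 8 was 4.75 times higher without *Mpo*, then 3.08, 2.54, 2.04 and 2.30 times, and 2.41 times in the top band. That ratio was thus lowest between 20 and 50 *Mpo* UMIs and did not narrow with each band.

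**Figure D3:**
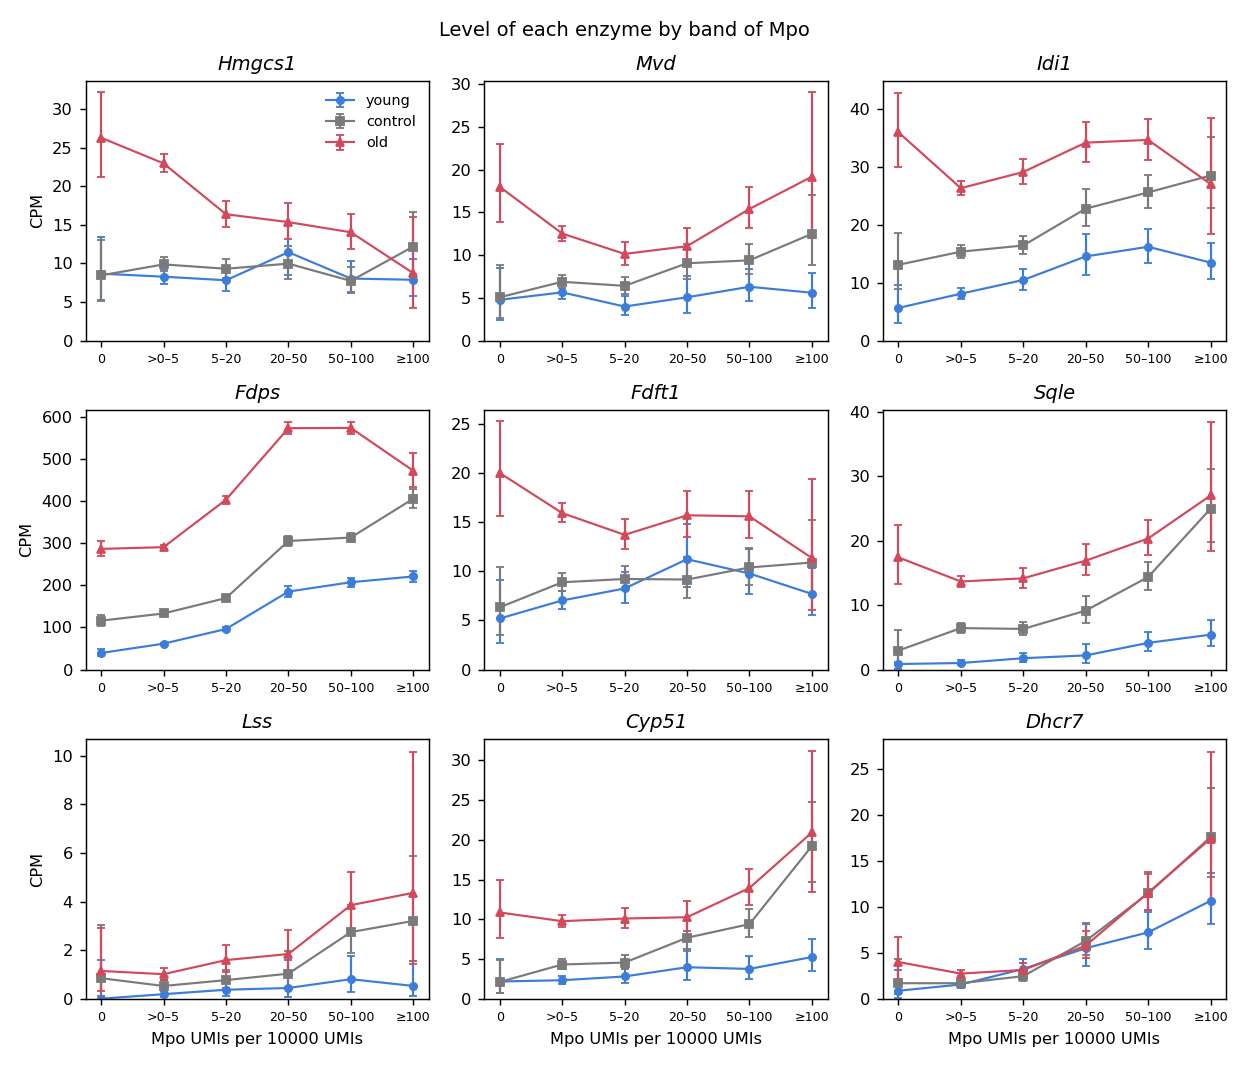
Level of each enzyme (CPM, linear axes from 0) by band of Mpo UMIs per 10000 UMIs in the young, control and old library, with exact 95% Poisson intervals. *Fdps* rises with *Mpo* in young and control cells, and *Hmgcs1* falls from 26.3 to 8.72 CPM over the bands of the old library.

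Most of the set passed the limit in every band. In cells without *Mpo*, all 8 enzymes with UMIs in both libraries were at least 1.5 times higher in old than in young cells. This compares with 11.8% of the genes that reached 10 CPM there in either library. The shares for the other bands, and those against control below, have the same minimum. *Dhcr7* and *Lss* did not reach it in this band, and no share with a lower minimum was computed per band. *Lss* had 0 UMIs there in young cells and 4 in old cells. *Sqle* and *Dhcr7* had 2 UMIs each there in young cells, so their log2 ratios of 4.33 (2.42 to 7.41) and 2.21 (0.08 to 5.39) are wide. With rising *Mpo* the next bands held 9 of 9 (6.73% of all genes), 8 of 9 (8.06%), 6 of 9 (7.19%) and 9 of 9 (5.84%). In the top band 7 of 9 passed (7.28%). Of 54 values over members and bands, 1 of them without a ratio, 47 passed. *Dhcr7* was the enzyme that was not higher in every band, with 3.24 CPM for young against 3.14 CPM for old cells between 5 and 20 *Mpo* UMIs. When bands were weighted equally, the log2 ratio of *Dhcr7* was 0.62 in place of 0.19, which is past the limit, and the count for old over young was 9 of 9 in place of 8. No share of all genes was computed with this weighting.

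Against the control library the count fell from the second band on. It was 8 of 9 without *Mpo* (12.3% of all genes), 9 of 9 (6.74%), 7 of 9 (7.08%), 6 of 9 (6.51%) and 4 of 9 (5.47%). In the top band 1 of 9 passed (8.81%), which is close to the share of all genes, and the median log2 ratio of the members there was 0.11. That enzyme was *Mvd*, at 12.5 CPM in control and 19.2 CPM in old cells, with an interval that includes no difference. The top band of the old library rests on 91 cells, and the members other than *Fdps* have 5 to 31 UMIs in it.

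**Figure D4:**
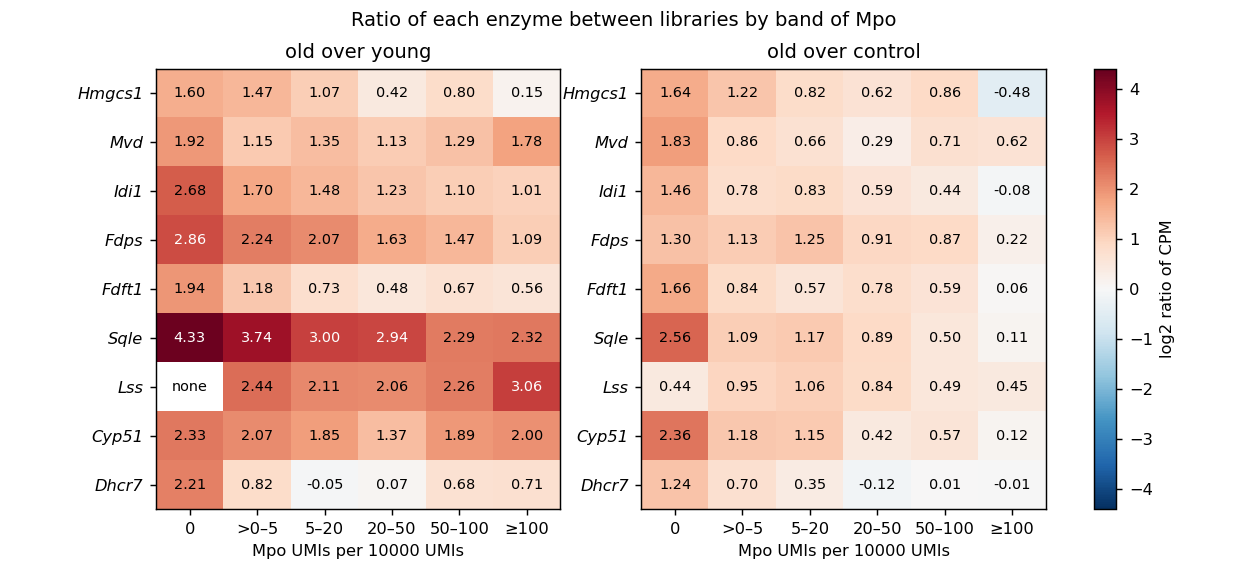
Log2 ratio of each enzyme in old over young (left) and old over control (right) cells within bands of Mpo UMIs per 10000 UMIs; red is higher in old, blue lower, and "none" marks *Lss*, which had 0 UMIs in young cells without *Mpo*. On the left all values but 1 lie above 0, and on the right the values of the top band lie between -0.48 (*Hmgcs1*) and 0.62 (*Mvd*).

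The enzymes were not alike in how they followed *Mpo* within a library. *Dhcr7* rose most steeply, 12.3 times from cells without *Mpo* to the top band in young, 10.4 times in control and 4.36 times in old cells. The young value rests on 2 UMIs in cells without *Mpo* (log2 interval 1.71 to 6.70). *Hmgcs1* did not follow *Mpo*: the same ratio was 0.908 in young and 1.44 in control cells, and in old cells it went the other way, from 26.3 CPM without *Mpo* to 8.72 CPM in the top band (0.332 times; log2 interval -2.70 to -0.65). *Sqle* and *Cyp51* rose 8.46 and 9.11 times in control cells, but 1.55 and 1.93 times in old cells. A rise of this kind was common among genes that reached 10 CPM in the top band or without *Mpo*. Of these, 60.4% (young), 57.8% (control) and 61% (old) were at least 1.5 times higher in the top band than without *Mpo*. The members' counts of 5 of 8, 8 of 9 and 5 of 9 are to be read against these shares, and those of young and old cells lie near them. In young cells the members that reached 10 CPM were *Idi1*, *Fdps* and *Dhcr7*, so most of the 8 lie outside the genes of that share. For *Fdps* the ratio was 5.61 in young cells, above that of 91.9% of all genes. In control cells it was 3.49 (80.1%), and in old cells 1.65, under the median of all genes of 1.89.

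Single cells gave the same order. With every cell thinned to 3000 UMIs, at least 1 *Fdps* UMI was found in 23.1% of young (22.1 to 24.2), 36.1% of control (35.2 to 37.1) and 58.2% of old cells (57.2 to 59.2). Without thinning the shares were 51.8%, 66.1% and 89.3%. No cell type that lacks this enzyme was at hand as a background. The cells set aside for markers of other lineages held shares of 28.6% in young (940 cells), 33.3% in control (120 cells) and 43.3% in old (97 cells). Cells with 3 or more *Fdps* UMIs of 3000 made up 0.994% of young, 3.51% of control and 11.2% of old cells.

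**Figure D5:**
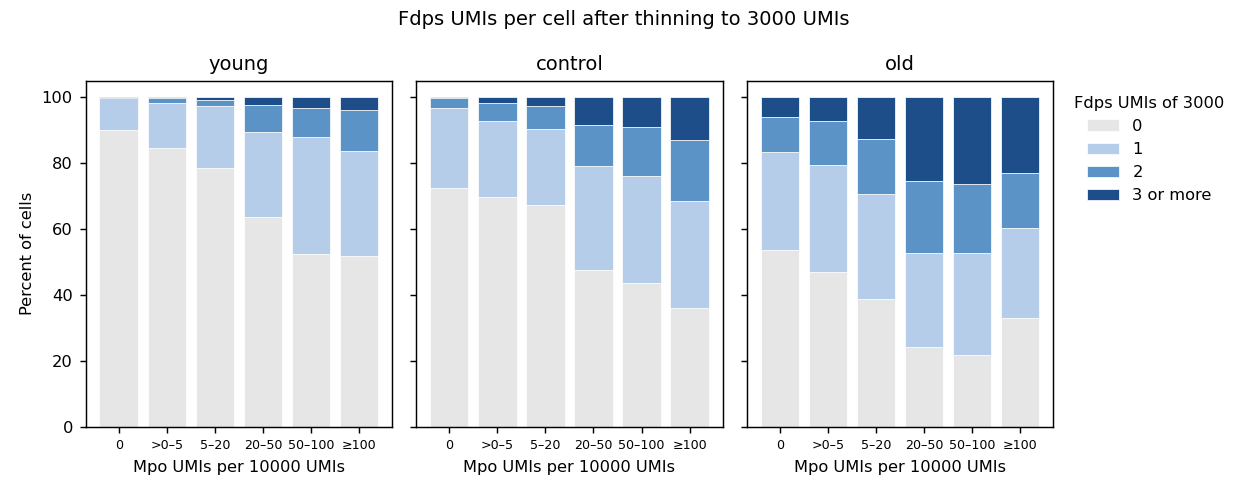
Percent of cells with 0, 1, 2 and 3 or more Fdps UMIs after thinning every cell to 3000 UMIs, by band of Mpo UMIs per 10000 UMIs, in the young, control and old library. In the band of 50 to under 100, 3.25% of young, 9.07% of control and 26.3% of old cells hold 3 or more.

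Whether the enzymes go together from cell to cell was described within each library, after subtracting the mean of each *Mpo* band. Cells of a library share its depth and composition, and the counts are sparse, so these values are descriptions. Over the 36 pairs of members the median Pearson correlation of log2(UMIs per 10000 + 1) was 0.0119 in young (6438 cells), 0.0341 in control (9660 cells) and 0.0647 in old cells (9584 cells). It was above 0 in 25, 35 and 36 pairs. The median correlation of all genes with *Fdps* was itself above 0, at 0.0129 in young, 0.0147 in control and 0.0135 in old cells. It is not a background for pairs without *Fdps*, for which none was computed. In young cells the correlations of *Mvd* (0.0125) and *Lss* (-0.0044) with *Fdps* lay under that median, and those of the other members above it. With *Fdps* itself, *Idi1* had the highest correlation of the members, at 0.0686 in young, 0.173 in control and 0.204 in old cells. Among genes with at least 1 CPM, *Idi1* was the single member within the 50 genes most correlated with *Fdps* in control (0.527% of genes fall there) and in old cells (0.531%), and no member was in young cells (0.515%). The members' correlations with *Fdps* were above those of 91.5% (*Lss*) to 99.5% (*Idi1*) of these genes in old cells. The range was 79.6% (*Mvd*) to 99.6% (*Idi1*) in control cells. In young cells, without *Lss*, it was 49.2% (*Mvd*) to 95.5% (*Idi1*). At 50 CPM or more no member besides *Fdps* was left to rank. Genes outside the set were ranked by mean correlation among the 1597 with at least 50 CPM in every library. The 5 highest were *Rps6*, *Rplp0*, *Rps4x*, *Rps23* and *Rps18*, all of the cytosolic ribosome, at 0.216 to 0.233.

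A further comparison set cells with an *Fdps* UMI among 3000 beside cells without one, the latter weighted to the *Mpo* bands of the former. The other 8 enzymes in sum were 1.37 times higher in cells with *Fdps* in the old library (1.27 to 1.48; 5576 and 4008 cells) and 1.501 times higher in the control library (1.37 to 1.65; 3491 and 6169 cells). In the young library the ratio was 1.04 (0.883 to 1.22; 1490 and 4948 cells). The median over all genes was 1.014 in young, 1.014 in old and 1.016 in control cells. *Idi1* was at 1.55 in old and 1.51 in control cells, and *Cyp51* reached 2.31 in control cells (1.68 to 3.19) but 1.19 in old cells (0.939 to 1.52).

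At the level of bands, with the 6 bands of 3 libraries as 18 points, *Idi1* was closest to *Fdps* among the members (Pearson's r of log2(CPM + 1) of 0.95), followed by *Sqle* (0.92) and *Cyp51* (0.89). *Hmgcs1* was the least like it (0.47). Outside the set the 5 genes most like *Fdps* among 1597 were *Bad* (0.97), *Gclm* (0.96), *Sfr1* (0.95), *Cebpb* (0.95) and *Sra1* (0.94). The points share libraries, so these values only order the genes.

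Sterol synthesis is also tied to cell division, and 10 mitotic genes summed to 1935, 1837 and 1853 CPM in young, control and old cells. In cells with at least 5 mitotic UMIs per 10000, *Fdps* had 109 CPM in young (5145 cells), 194.6 CPM in control (7868 cells) and 379 CPM in old cells (7510 cells). In cells with no mitotic UMI it had 42.4 CPM in young (207 cells), 98.4 CPM in control (262 cells) and 256 CPM in old cells (141 cells). The order of *Fdps* was the same in both classes. The other 8 enzymes in sum had 40.7, 63.4 and 103 CPM in young, control and old cells of the first class. In cells with no mitotic UMI they had 44.2 CPM (32.7 to 58.5), 42.8 CPM (32.6 to 55.0) and 138 CPM (116 to 163). Control was thus not above young there. Old over young passed 1.5 times for 8 of 9 enzymes in the first class and for 8 of 9 in the second, where *Lss* had 0 UMIs in young cells. Of the genes that reached 10 CPM there in either library, 4.5% and 15.8% passed. *Cyp51*, *Dhcr7* and *Lss* did not reach that minimum in the first class, nor did *Sqle*, *Dhcr7* and *Lss* in the second. In the second class *Mvd* (9 young and 17 old UMIs), *Sqle* (4 and 10) and *Dhcr7* (2 and 7) passed with intervals that include no difference.

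Inside the young library, *Fdps* was lower in cells with more of the interferon-stimulated genes that set this library apart. Young cells with under 5 UMIs of these 8 genes per 10000 (2320 cells) had 139 CPM of *Fdps*, and young cells with 5 or more (4118 cells) had 84.9 CPM. The 2 classes also differed in *Mpo*, at 3516 and 1781 CPM. Between 0 and 5 *Mpo* UMIs per 10000, where *Mpo* was 280 and 282 CPM, *Fdps* was at 75.7 CPM (764 UMIs) and 55.1 CPM (1222 UMIs). Between 5 and 20 *Mpo* UMIs it was at 122 CPM (670 UMIs) and 79.1 CPM (638 UMIs), with *Mpo* at 944 and 799.6 CPM. Between 50 and 100 *Mpo* UMIs it was at 216 CPM (972 UMIs) and 194.9 CPM (577 UMIs). With the cells under 5 alone, the log2 ratio of old over young for *Fdps* was 1.41 in place of 1.78. In these cells 8 of 9 enzymes still passed, against 5.64% of the genes that reached 10 CPM in either library. *Dhcr7* and *Lss* did not reach that minimum, which the next 2 shares also have. *Dhcr7* was then at 4.63 CPM in young cells and at 4.12 CPM in old ones. Old over control was 7 of 9 as before (5.34%). Control over young fell from 5 to 3 of 9 (1.77%), which were *Mvd*, *Sqle* and *Lss*, all under that minimum. The log2 ratio of *Fdps* for control over young went from 0.83 to 0.45. The ratios of cells under 5 were not matched for *Mpo*. It was at 3516 CPM in young, 2054 CPM in control and 1437 CPM in old cells. Between 0 and 5 *Mpo* UMIs, the log2 ratio of *Fdps* for old over young was 1.94, in place of 2.24 without the split. Control over young was 0.82 there in place of 1.11. Between 5 and 20 *Mpo* UMIs the values were 1.73 in place of 2.07 and 0.48 in place of 0.82. For *Dhcr7*, old over young was 0.79 and -0.52 in the 2 bands. The part of the interferon difference in the gap between young and the other libraries was not tested.

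Markers of other blood cells also moved with the young library. Young cells set aside for monocyte markers (389 cells) had 142 CPM of *Fdps* and 110 CPM of the other 8 enzymes in sum, and those set aside for dendritic markers (123 cells) had 132 and 149 CPM. Both held more of the 8 than the young cells in use, at 40.7 CPM. For monocyte markers, *Fdps* had 130 CPM in control (36 cells) and 215 CPM in old (64 cells), and the other 8 had 104 and 130 CPM. For dendritic markers, *Fdps* had 170 CPM in control (19 cells) and 364 CPM in old (12 cells), and the other 8 had 101 and 121 CPM. In monocyte-marked cells *Fdps* of control was thus not above young. Cells set aside for B progenitor markers (105 cells) had 62.8 CPM of *Fdps*, and those for erythroid markers (74 cells) 64.0 CPM. The list for NK and T cells (215 cells) cannot name its cells, since its marker *Nkg7* was at 428 to 716 CPM in the cells in use as well. With all of these cells kept in, 8 of 9 enzymes passed for old over young, as without them. Leaving out cells whose barcode occurs in another library left the 3 counts at 8, 7 and 5. For neither of these settings was a share of all genes computed.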

How the data were processed

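Single-cell RNA was counted in 3 libraries of CD133+ bone marrow cells (young, old and control). The deposited matrices hold UMI counts that the authors made from 10x Chromium 3′ v2 reads. The submitters' processing notes name STAR, Cell Ranger 2.1.0 and mm10. The strand setting is not given in the sources used here. The matrices held 8362 young, 10869 control and 10597 old cells, with 81434722, 108985799 and 138030352 UMIs. Of 27998 gene IDs, 27645 matched the gene annotation used for positions.

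Cells were kept with at least 200 genes, at most 20% mitochondrial UMIs and a UMI count within the 5th to 95th percentile (control alone, young and old together). Doublets were not called. Cells with 2 or more markers of another blood cell type and at least 10 UMIs per 10000 of its list were set aside. UMIs were summed per library and given as CPM, with exact Poisson intervals for levels and exact binomial intervals for ratios. A ratio of 1.5 was used as a limit of size, not as a test. Cells were thinned to 3000 UMIs (seed 7) for shares of cells. Correlations used log2(UMIs per 10000 + 1), with the mean of each *Mpo* band subtracted. Each group is 1 library, so library, run and group cannot be told apart, and no p-value was computed. Deposited counts were used as they stand, and the steps were tested on simulated data. The work was done with pandas 2.3.3, scipy 1.17.1, numpy 2.4.6 and matplotlib 3.10.9 under Python 3.11.15.

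The members, the lists and the limits were chosen with earlier results of these data known. The genes named are the 9 members, 3 lists of 9 other pathway genes each (3 listed genes are not reported here), and by rule the 5 genes most like *Fdps* between cells and over bands. The split by interferon-stimulated genes, the removal of shared barcodes, the background of genes with a mean of at least 1 CPM, the ranking among genes of at least 1 CPM and the comparison of cells with and without an *Fdps* UMI were chosen after seeing the data. Alternatives changed the cell filters, the set-aside rule, thinning, cell weighting, scaling, centring, the bands and the limit.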

Additional observations from a re-analysis of the deposited data

How the results depend on the processing

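No test was run, and counting error is the precision that depth allows. Over 13 settings, which changed cell filters, scaling, weights or the cells used, the log2 ratio was above 0 in 114 of 117 values for old over young, in 116 of 117 for old over control and in 113 of 117 for control over young. Values outside the counting interval of the reported one numbered 37, 15 and 23. Under 5 interferon UMIs per 10000, without matching for *Mpo*, *Dhcr7* was at -0.17 for old over young and -0.18 for control over young. The count of members at least 1.5 times higher for control over young went from 5 to 3 in those cells, to 2 with a limit of 2 times and to 2 with members of at least 10 CPM alone. With members of at least 50 CPM alone, which is *Fdps*, the count was 1 in each of the 3 comparisons. Old over control fell from 7 to 1 with a limit of 2 times. Shares of all genes were not computed for the limit of 2 times or the minimum of 50 CPM. The number of members within the 50 genes most correlated with *Fdps*, summed over libraries, was 0 with genes of at least 50 CPM, where no other member could be ranked, and 2 with genes of at least 10 CPM or at least 1 CPM. The counts over *Mpo* bands and mitotic classes stayed within 1.5 times of those reported. The old top *Mpo* band rests on 91 cells. No paired analysis was possible because each group is 1 pooled library. No library could be left out of a comparison for the same reason.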
